A study of Homo sapiens with 4 samples.

Results

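NELFE and 8 other genes of promoter-proximal pausing of RNA polymerase II were followed, with SKIV2L, the gene that lies head to head with NELFE, as a positional check. The 10 genes were taken by symbol from the 39634 genes with values in the count table, and 9 of them had enough counts to be tested. NELFE was chosen by its very large rise, from few counts, in this same comparison, so its values are given as a description and without a test. The other members were chosen for their function or position. In GENCODE 29, NELFE and SKIV2L lie on chromosome 6, NELFA on 4, NELFB and CDK9 on 9, CCNT1 on 12, SUPT4H1 and HEXIM1 on 17, SUPT5H on 19 and NELFCD on 20.

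RNA polymerase II often halts shortly after it starts a gene, and release from this pause sets the output of many genes. The negative elongation factor NELF, with its subunits NELF-A, NELF-B, NELF-C/D and NELF-E, and the DRB sensitivity-inducing factor DSIF, a pair of SPT4 and SPT5, hold the paused polymerase. The kinase P-TEFb, made of CDK9 and a cyclin T, phosphorylates NELF, DSIF and the tail of the polymerase and so allows elongation. HEXIM1 keeps P-TEFb inactive within the 7SK ribonucleoprotein.

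The cells were BEAS-2B, an established line of normal human lung epithelium, grown in N2B27 medium. Of the 4 libraries of polyadenylated RNA, 2 were labelled Fer knockdown, from cells given a short hairpin RNA (shRNA) against the tyrosine kinase gene FER (shFer), and 2 were labelled control, from cells given shControl. The first pair is called shFer-labelled here, since FER mRNA did not bear out the label. The series asked what depletion of FER does to gene expression. The sources used here give neither the hairpin sequences nor whether each line was a clone or a pool. No label says that the replicates came from separate cultures, so each p-value measures the spread between these samples alone, and that spread may be technical.

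The table held 21422976 and 25169713 counts in shFer-labelled libraries, against 21772587 and 22857051 in control. FER itself averaged 18.97 ± 1.66 TMM-scaled CPM (counts scaled to a common library size) in shFer-labelled libraries and 18.8 ± 3.42 CPM in control (SD, n = 2 each). Its fitted log2 fold change was 0.02 with a 95% interval of -0.37 to 0.40 (edgeR adjusted p = 0.976). The mRNA of the targeted gene was thus not detectably lower, and the directions given here are those of the labels. The mitochondrial share of counts was 9.62% and 9.37% in shFer-labelled libraries, against 16.9% and 19.4% in control. Epithelial markers summed to between 2872 and 2901 CPM in shFer-labelled libraries and between 2681 and 3413 CPM in control, mostly from KRT8 and KRT18, whereas KRT5 had at most 12 counts. The 4 haematopoietic markers had at most 10 counts each, with CD3E at 0 in all 4 libraries. The 4 fibroblast markers summed to 89.8 to 92.6 CPM in shFer-labelled libraries and 106 to 117 CPM in control, but they did not move together. COL1A1 was lower in shFer-labelled libraries (56.7 and 58.0 CPM, against 76.9 and 81.2 CPM in control). COL3A1 and PDGFRA, at few counts, were higher there, and PDGFRB overlapped between the groups. In bulk RNA, fewer cells of a type and less RNA per cell cannot be told apart.

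NELFE and SKIV2L lie on opposite strands of chromosome 6 and start next to each other, so the sequence between them serves as the promoter of both. In RefSeq on GRCh38.p14 the starts of their transcripts are 204 bases apart, and of the 300 bases from 250 before to 50 after the start of NELFE, 297 also lie in the window of SKIV2L, which RefSeq names SKIC2. The window is shown because both genes read from it and their counts are compared here. It spans chr6:31958922-31959221, on the minus strand. Capitals mark the 4 matches on either strand to the letters CGGAAGT, a motif that some ETS-family factors bind and not the only form of it.
NELFE: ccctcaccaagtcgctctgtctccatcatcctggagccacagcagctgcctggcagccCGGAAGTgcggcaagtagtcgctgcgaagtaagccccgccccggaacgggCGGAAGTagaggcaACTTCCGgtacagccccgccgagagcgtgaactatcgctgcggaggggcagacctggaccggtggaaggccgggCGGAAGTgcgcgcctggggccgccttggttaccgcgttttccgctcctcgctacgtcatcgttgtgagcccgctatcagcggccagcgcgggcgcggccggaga
At least 1 match was found in 6.83% of all 35116 RefSeq promoter windows. Among the other members, NELFB and SUPT4H1 had 1 match each, CDK9 had 2, and CCNT1 had 2 in 1 of its windows. The windows of NELFA, NELFCD, SUPT5H and HEXIM1 had 0, which says only that these letters are not in those windows.

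NELFE encodes the subunit of NELF that carries an RNA recognition motif and binds the nascent transcript. NELFE (ENSG00000204356) had 293 and 594 counts in shFer-labelled libraries, against 27 and 16 counts in control. Both shFer-labelled libraries were far above both control libraries, and the groups did not overlap. The gene lies in a stretch of chromosome 6 where even RPS18, a ribosomal protein gene, was listed at 0 to 2 counts, and its values are read with that limit. The exact 95% intervals on these counts, which cover counting error only, were 260 to 329 and 547 to 644 in shFer-labelled libraries, against 17.8 to 39.3 and 9.14 to 25.98 in control. NELFE averaged 17.6 ± 6.69 CPM in shFer-labelled libraries and 1.03 ± 0.412 CPM in control (SD, n = 2 each). The fitted log2 fold change was 4.10 ± 0.35 (SE), or 17.2-fold. It lay between 3.65 and 4.57 under the 10 alternatives run, which reuse the counts that NELFE was chosen for. Replicates of one group also differed, by 1.73-fold within shFer-labelled libraries and by 1.79-fold within control.

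The other NELF genes gave no such difference. NELFA, whose product contacts the polymerase, had 34.7 and 37.0 CPM in shFer-labelled libraries, against 40.7 and 41.6 CPM in control (log2 fold change -0.20 ± 0.13 SE, 95% interval -0.50 to 0.10, edgeR adjusted p = 0.480). NELFB, first described as a cofactor of BRCA1, had 114 and 115 CPM in shFer-labelled libraries, against 114 and 92.2 CPM in control (log2 fold change 0.15, interval -0.16 to 0.46, adjusted p = 0.618). Its difference rested on control replicate 2, which was below the other 3 libraries. NELFCD, which gives the alternative NELF-C and NELF-D proteins, had 174 and 171 CPM in shFer-labelled libraries, against 171 and 168 CPM in control (log2 fold change 0.03, interval -0.23 to 0.29, adjusted p = 0.929). Without control replicate 1, the log2 fold change of NELFB was 0.31, and without control replicate 2 it was -0.02. NELFB passed the threshold in the first of these fits, which leaves a lone control library and is read by effect size alone.

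**Figure D1:**
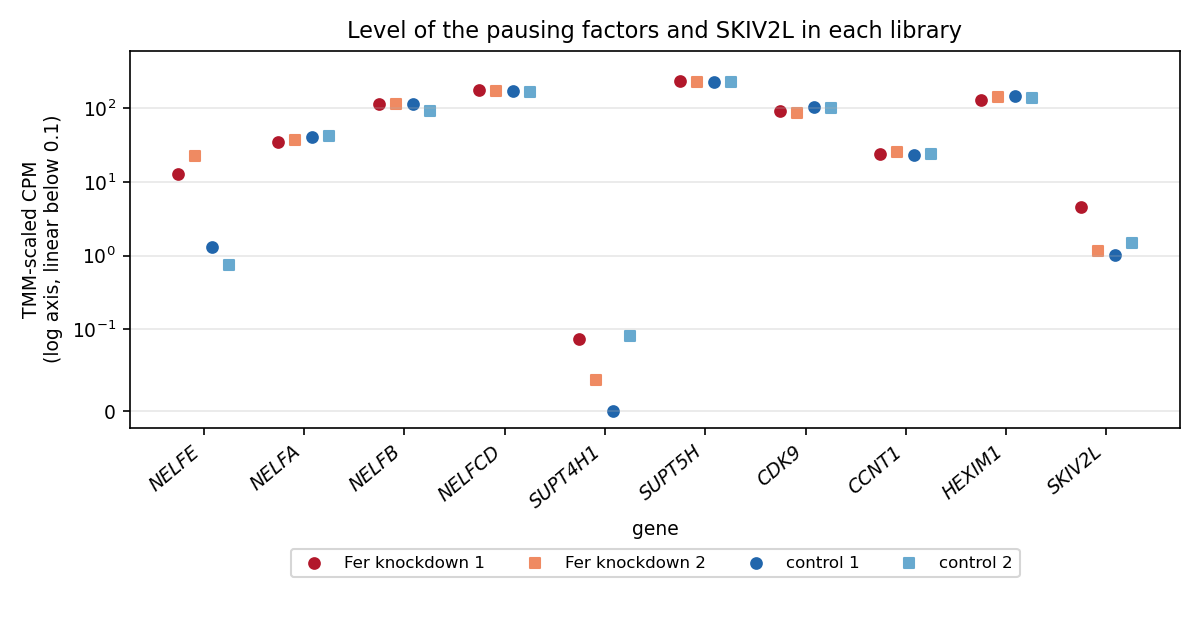
TMM-scaled CPM (log axis, linear below 0.1) of the 10 genes, with 1 point for each library, circles for replicate 1 and squares for replicate 2. NELFE stands at 12.9 and 22.4 CPM in shFer-labelled libraries and at 1.32 and 0.738 CPM in control, SUPT4H1 is near 0 throughout, and the points of the other pausing factors lie close together.

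The subunits of NELF form one complex, and their mRNA levels were compared per length, as CPM per kilobase of the table's gene length. NELFE alone of the 4 lies in the stretch of chromosome 6 where RPS18 was listed at 0 to 2 counts, and whether its share of the other subunits reflects reads not counted there was not tested. NELFE had 4.87 and 8.45 CPM per kilobase in shFer-labelled libraries, against 0.499 and 0.279 in control. NELFB had the highest level of the 4 genes, at 44.7 and 45.4 CPM per kilobase in shFer-labelled libraries and 44.9 and 36.3 in control. The NELFE level was therefore 10.9% and 18.6% of the NELFB level in shFer-labelled libraries, against 1.11% and 0.768% in control. Set against NELFA, the lowest of the other subunits, it was 71.1% and 116% in shFer-labelled libraries, against 6.20% and 3.39% in control. NELFCD lay between, at 27.7 and 27.2 CPM per kilobase in shFer-labelled libraries and 27.1 and 26.7 in control.

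**Figure D2:**
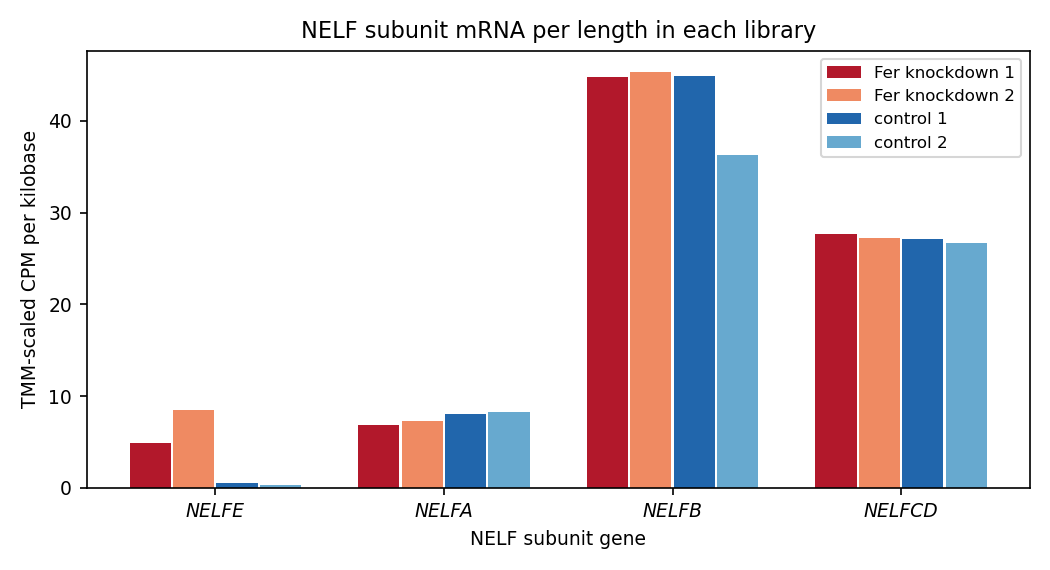
TMM-scaled CPM per kilobase of the 4 NELF subunit genes, with 1 bar for each library and no error bar. The NELFE bars, which rest on counts from the stretch of low counts on chromosome 6, are below those of NELFB and NELFCD in every library, and in control they are at 0.499 and 0.279 CPM per kilobase.

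DSIF could be followed through 1 of its genes. SUPT5H, for the large subunit SPT5, had 232 and 223 CPM in shFer-labelled libraries, against 223 and 224 CPM in control, a log2 fold change of 0.02 (interval -0.23 to 0.28, adjusted p = 0.941). The groups overlapped, and the 2 control libraries of SUPT5H differed least among the tested members. SUPT4H1, for the small subunit SPT4, was listed at 2 and 1 counts in shFer-labelled libraries and at 0 and 2 counts in control, and it was not tested. A count of 0 in control replicate 1 allows up to 3 counts, or 0.147 CPM. In GENCODE 29, 89.8% of the exonic bases of SUPT4H1 overlap other genes. The protein-coding gene AC004687.2, on the same strand, covers 63.7% of the exonic bases, and the antisense gene TSPOAP1-AS1 covers 27.8%. Of the 50-base words in SUPT4H1 transcripts, 77.5% also occur in transcripts of other genes, so its counts are uncertain and say nothing of its level.

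Genes of P-TEFb and its inhibitor did not pass the test with all 4 libraries. CDK9, the kinase, had 92.5 and 85.7 CPM in shFer-labelled libraries, against 103 and 99.7 CPM in control, with a log2 fold change of -0.19 ± 0.12 (SE, interval -0.47 to 0.09, adjusted p = 0.469). Both values of shFer-labelled libraries lay below both control values, as they did for 23.4% of all tested genes. Without control replicate 2 the log2 fold change of CDK9 was -0.24. CDK9 passed the threshold in that fit, which leaves a lone control library and is read by effect size alone. CCNT1, the cyclin T1 partner of CDK9, had 23.5 and 25.2 CPM in shFer-labelled libraries, against 23.2 and 23.9 CPM in control (log2 fold change 0.05, interval -0.28 to 0.37, adjusted p = 0.906). HEXIM1 had 128 and 140 CPM in shFer-labelled libraries, against 148 and 137 CPM in control (log2 fold change -0.08, interval -0.36 to 0.19, adjusted p = 0.776). With library totals alone, HEXIM1 was at 0.08, while the median over all genes then moved to 0.18. An antisense gene covers 14.4% of the exonic bases of HEXIM1, and that gene had 11 and 6 counts in shFer-labelled libraries and 0 and 3 counts in control.

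Across the 7 tested pausing factors other than NELFE, log2 fold changes ran from -0.20 to 0.15 with a median of 0.02, while the median of all 15336 tested genes was 0.01. By edgeR's quasi-likelihood test 0 of the 7 passed an adjusted p of 0.05, where 0.646% of all tested genes did (43 higher and 56 lower, but 396 higher and 47 lower with library totals alone), 0 had an unadjusted p under 0.05 against 17.7% of all tested genes, and DESeq2 called 0 against 3.78%. The groups did not overlap for 3 of them (NELFA and CDK9, lower in shFer-labelled libraries, and NELFCD, higher), and for 49.2% of all tested genes (25.8% higher and 23.4% lower). The 95% intervals of the 7 lay between -0.50 and 0.46 on the log2 scale. The mitochondrial share was lower in shFer-labelled libraries, and with the mitochondrial chromosome left out 0 of the 7 were called and NELFE stood at 4.09.

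SKIV2L, a helicase of the SKI complex that feeds RNA to the cytoplasmic exosome, was set beside NELFE as its neighbour. SKIV2L had 102 and 31 counts in shFer-labelled libraries, against 21 and 32 counts in control. ShFer-labelled replicate 1 stood above the other 3, and replicate 2 lay within the control range. SKIV2L averaged 2.83 ± 2.35 CPM in shFer-labelled libraries and 1.25 ± 0.317 CPM in control (SD, n = 2 each). Its log2 fold change was 1.15 ± 0.56 (SE, interval -0.10 to 2.40, adjusted p = 0.318). Without shFer-labelled replicate 1 it was -0.10, without shFer-labelled replicate 2 it was 1.83, and without control replicate 2 it was 1.41. SKIV2L passed the threshold in the fits that gave 1.83 and 1.41, which leave a lone library in a group and are read by effect size alone. With no filter on low counts it passed the threshold at 1.15 (edgeR adjusted p = 0.0230), where 993 of 23979 genes were called. Between the shFer-labelled libraries, NELFE was higher in replicate 2 and SKIV2L was higher in replicate 1. The count of NELFE was 2.87 and 19.2 times that of SKIV2L in shFer-labelled libraries, against 1.29 and 0.500 times in control. The exons of the genes share 31 bases in GENCODE 29, 1.14% of the exonic bases of NELFE and 0.557% of those of SKIV2L. Without strand, reads there cannot be told apart.

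NELFE and SKIV2L lie in the major histocompatibility complex, and most protein-coding genes around them were listed at or near 0. From TRIM27 to DAXX, bounds chosen after the values were seen, 135 of 166 protein-coding genes (81.3%) had at most 10 counts in every library, against 257 of 843 (30.5%) on the rest of chromosome 6. In that stretch 96 genes had 0 counts in all 4 libraries. Genes that every growing cell uses were among the low ones. RPS18, a protein of the small ribosomal subunit, was listed at 1 and 2 counts in shFer-labelled libraries and at 0 and 1 counts in control. The beta-tubulin gene TUBB was listed at 0 and 2 counts in shFer-labelled libraries and at 2 and 2 in control. CLIC1 and LSM2, an intracellular chloride channel protein and a subunit of the LSM splicing complex, were each listed at 0 and 0 in shFer-labelled libraries and at 1 and 0 in control. The values of NELFE and SKIV2L in both groups are read with that limit, as counts listed in the table. RPS18, TUBB, CLIC1 and LSM2 were named after their values were seen.

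**Figure D3:**
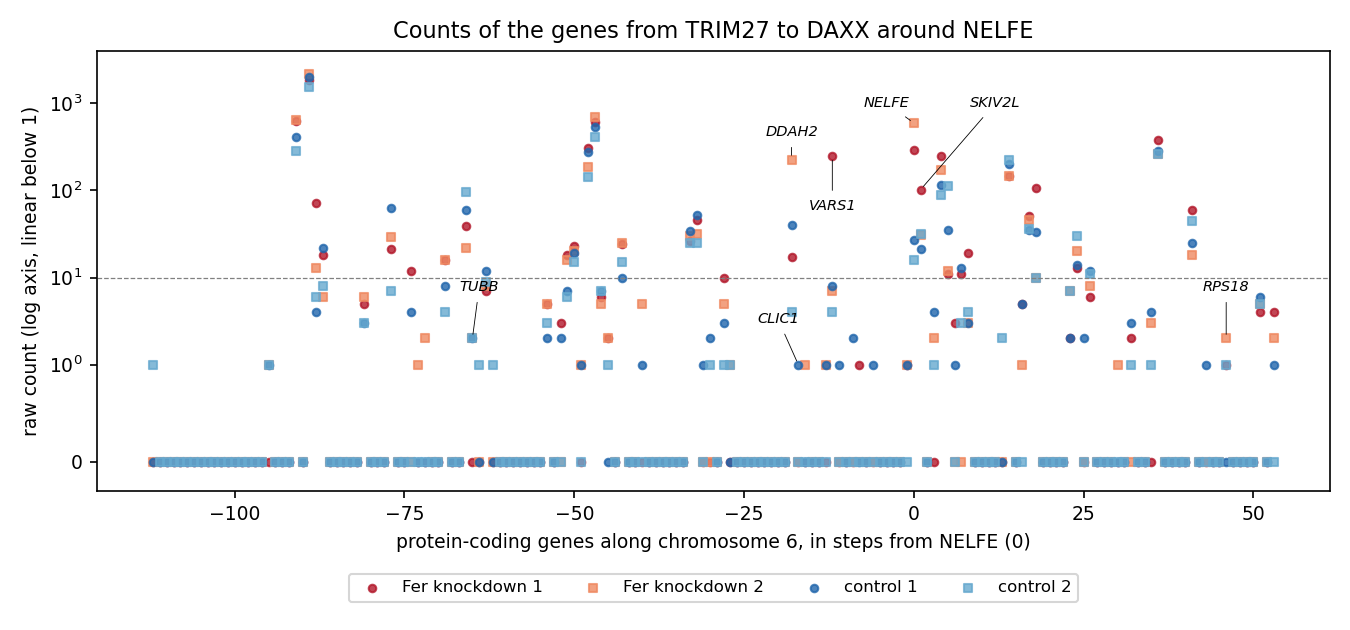
Raw counts (log axis, linear below 1) of the 166 protein-coding genes from TRIM27 to DAXX, ordered along chromosome 6 and placed by the number of genes from NELFE, with 1 point for each library and overlying points at 0. The dashed line is at 10 counts, and 135 of the 166 genes stay at or below it in every library.

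Sequence shared with other genes of the primary assembly was counted for the same genes. Of the 50-base words in NELFE transcripts, 1.70% occur in another gene's transcripts, all of them in the microRNA gene MIR1236 that lies inside NELFE. The share was 0.0% for SKIV2L, 0.0% for LSM2, 3.31% for CLIC1, 11.3% for RPS18 and 23.9% for TUBB. For the other NELF genes it was at most 0.943%. The sequences searched hold no alternate haplotypes of the region, and how the authors' processing assigned reads there was not tested.

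Counts in the stretch also differed between replicates. The median absolute log2 difference between replicates, of CPM plus 0.1, over its 27 tested genes was 0.384 in shFer-labelled libraries and 0.586 in control, against 0.104 and 0.248 over the 13317 other tested protein-coding genes. The median over those tested genes of the mean count was 40 in the stretch and 561 elsewhere, and the part of low counts in these differences was not tested. DDAH2, an enzyme that breaks down methylated arginines, had 17 and 226 counts in shFer-labelled libraries and 40 and 4 in control (log2 fold change 2.15 ± 0.97 SE, adjusted p = 0.284). BAG6, a chaperone gene, was the only other tested gene on that side of NELFE in the list of neighbours, at 46 and 32 counts in shFer-labelled libraries and 52 and 25 in control (adjusted p = 0.867). VARS1, the cytosolic valine transfer RNA synthetase, was named after its values were seen. It had 247 and 7 counts in shFer-labelled libraries and 8 and 4 in control and was not tested.

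On the other side of SKIV2L the nearest tested genes of the list were C4A, C4B and TNXB. C4A and C4B, near-identical copies that encode complement component C4, can share reads, so their split is uncertain. C4A had 251 and 173 counts in shFer-labelled libraries and 116 and 88 in control (log2 fold change 0.85, adjusted p = 0.170). C4B had 11 and 12 counts in shFer-labelled libraries and 35 and 112 in control (log2 fold change -2.87, adjusted p = 0.0549). Their sums were 262 and 185 counts in shFer-labelled libraries and 151 and 200 in control, which overlapped. TNXB, for the matrix protein tenascin-X, had 11 and 0 counts in shFer-labelled libraries and 13 and 3 in control (adjusted p = 0.789). Of the 36 listed neighbours, NELFE and SKIV2L among them, 24 had at most 10 counts in every library and 10 were tested. Of the 26 tested genes of the whole stretch other than NELFE, edgeR called 0, with 6 at an unadjusted p under 0.05 where 17.7% of all tested genes were, and DESeq2 called 1 (MDC1, lower) where it called 3.78% of all tested genes.

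Beyond the members, 85 tested genes of the same steps of transcription were examined in lists by complex or role. None passed an adjusted p of 0.05 in edgeR's test, where 0.28% of all tested genes passed as higher and 0.365% as lower, and their median log2 fold change was -0.04. By unadjusted p, 16 of the 85 were under 0.05, a share near the 17.7% of all tested genes. DESeq2 called 4, all higher in shFer-labelled libraries (POLR2G, POLR2I, WDR61 and ATF3), where it called 3.78% of all tested genes, 1.62% as higher. Without control replicate 1 edgeR called 38 of the 85, against 29.5% of all genes tested in that fit. Without control replicate 2 it called 21, against 20.6%. With the mitochondrial chromosome left out it called 0.

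Among the 12 tested subunits of RNA polymerase II, log2 fold changes ran from -0.43 to 1.03, with a median of 0.18. POLR2G, whose RPB7 protein forms part of the stalk of the polymerase, was nearest to the threshold, at 88.5 and 94.99 CPM in shFer-labelled libraries and 62.1 and 47.3 CPM in control (log2 fold change 0.75 ± 0.15 SE, adjusted p = 0.0561). POLR2I, for RPB9, was at 1.03 (adjusted p = 0.0924), but 79.6% of its exonic bases overlap another gene. Both genes were higher in both shFer-labelled libraries than in either control library, as were 25.8% of all tested genes. The PAF1 complex, which travels with the elongating polymerase, had a median of -0.10 over 6 genes. Its members with the smallest p were WDR61, also a subunit of the SKI complex, at 0.62 (adjusted p = 0.0933) and LEO1 at -0.45 (adjusted p = 0.186). In the SKI complex, WDR61 and SKIV2L were the 2 of 4 with the smallest p.

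Other regulators of the pause stayed further from the threshold. In the 7SK ribonucleoprotein and P-TEFb list, LARP7, which binds and stabilises 7SK RNA, was at -0.30 (adjusted p = 0.330), followed by CDK9. The 7SK RNA itself, RN7SK, which is not polyadenylated, was listed at 0 counts in these oligo(dT)-selected libraries, and another annotated gene covers 100% of its exonic bases. BRD3, a bromodomain protein that binds acetylated histones, was at -0.01 (adjusted p = 0.983). In the super elongation complex, which carries P-TEFb, ELL3 was at 1.45 (adjusted p = 0.282) from 12 and 14 counts in shFer-labelled libraries and 4 and 4 in control, with 69.2% exon overlap, and MLLT3 was at -0.44 (adjusted p = 0.323). The histone chaperone genes IWS1 and SUPT6H, of the list of other elongation factors, were at -0.25 and -0.21 (adjusted p = 0.355 and 0.365). MNAT1 and CCNH, of the kinase module of TFIIH, were at -0.40 and -0.31 (adjusted p = 0.244 and 0.269). INTS8 and INTS6, of the Integrator complex that cleaves nascent RNA at paused polymerase, were at -0.37 and -0.26 (adjusted p = 0.265 and 0.414). SRRT, which joins the cap-binding complex, was at -0.28 (adjusted p = 0.239) and NCBP1, the large cap-binding subunit, at 0.16 (adjusted p = 0.589).

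**Figure D4:**
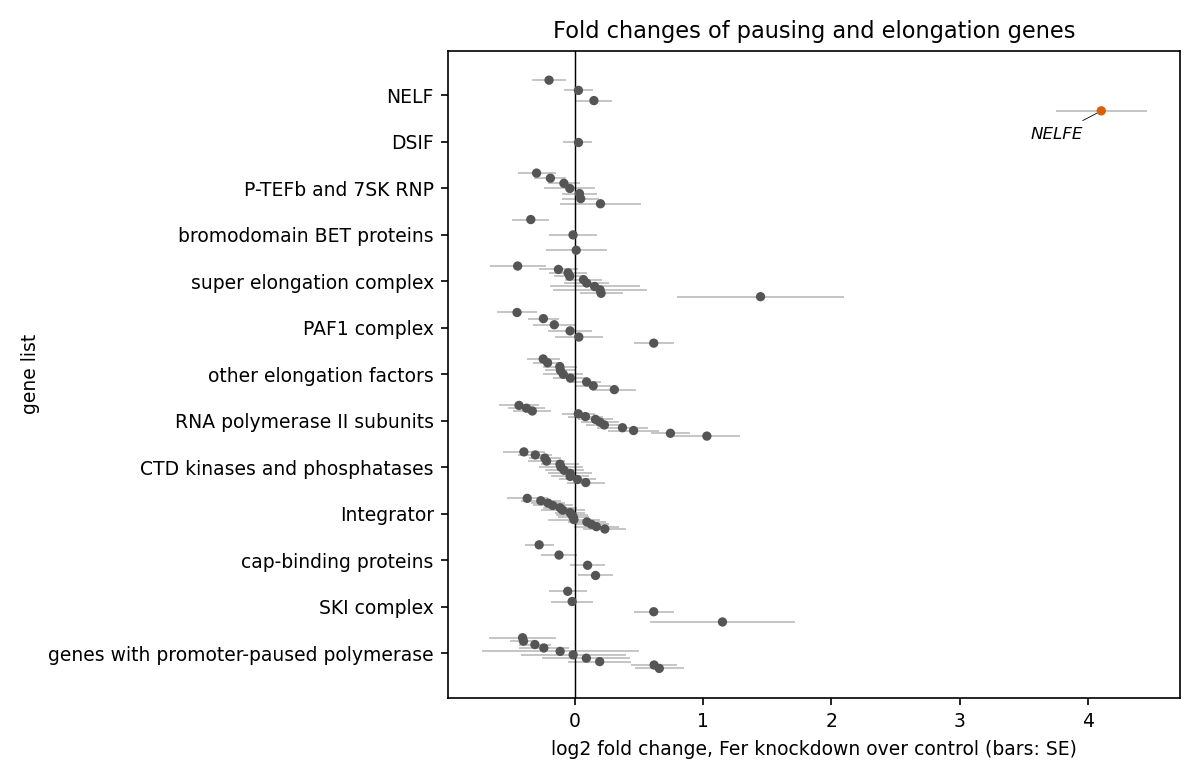
Log2 fold change, shFer-labelled libraries over control, of every tested gene in the lists by complex or role, without the list of neighbours on chromosome 6, with bars for the SE. NELFE, in orange and chosen for its rise, stands at 4.10, ELL3 at 1.45 is the next highest, and WDR61 appears in 2 lists.

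Genes known for paused polymerase at their promoters were examined by their mRNA levels, which do not measure the pause itself. Of 12 such genes 10 were tested, with a median log2 fold change of -0.06, and 0 passed edgeR's test, 4 had an unadjusted p under 0.05 (17.7% of all tested genes) and DESeq2 called 1 (3.78% of all tested genes). HSPA8, a constitutive heat shock protein, was at 1041 and 974 CPM in shFer-labelled libraries and 1344 and 1312 CPM in control (log2 fold change -0.40, adjusted p = 0.110). IER2, an immediate-early gene, was at 0.62 (adjusted p = 0.124), with 30.8% exon overlap, and ATF3, a stress-induced transcription factor and the gene that DESeq2 called, was at 0.66 (adjusted p = 0.124). The heat shock genes HSPA1A and HSPA1B lie in the stretch around NELFE and had at most 2 counts in any library, so they could not be read. Among the immediate-early genes FOS varied widely within control, with 2503 and 3975 counts in shFer-labelled libraries and 1224 and 4383 in control, and the groups overlapped (adjusted p = 0.992). FOS was named for its spread after its values were seen.

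The genes nearest to NELFE in profile were sought among all tested genes, by the Euclidean distance between log2 CPM values centred over the 4 libraries. The nearest was ADORA2BP1, a processed pseudogene on chromosome 1, at a distance of 1.11 and with 393 and 390 counts in shFer-labelled libraries against 53 and 21 in control. RMRP, an RNA of a nuclear ribonuclease, MGAT2, an enzyme of N-glycan branching, SNHG25, a host gene of a small nucleolar RNA, and RPL37P2, a ribosomal protein pseudogene, followed at 1.44 to 1.62. RMRP had 25 and 61 counts in shFer-labelled libraries and 2 and 4 in control, and MGAT2 had 28 and 59 counts in shFer-labelled libraries and 3 and 5 in control. All 5 are lower in both control libraries, which NELFE's own profile fixes. Of the 5, 2 are pseudogenes and 3 overlap other genes over at least 25% of their exonic bases, namely RMRP (98.5%), MGAT2 (91.9%) and SNHG25 (48.6%). NELFE itself overlaps other genes over 4.89%.

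**Figure D5:**
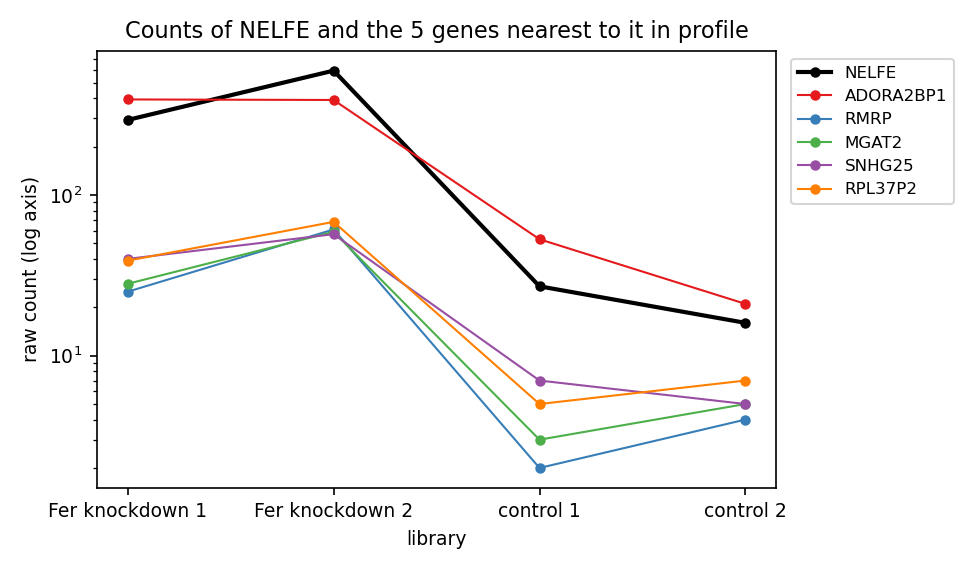
Raw counts (log axis) of NELFE and of the 5 tested genes with the nearest centred profile, in the 4 libraries, the lines joining the points of 1 gene. NELFE has 293 and 594 counts in shFer-labelled libraries and 27 and 16 in control, and RMRP has 25 and 61 in shFer-labelled libraries and 2 and 4 in control.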

How the data were processed

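The deposited table holds the authors' raw counts, 1 row a gene with its Ensembl identifier, symbol and length, per the file headers. HISAT2, featureCounts and DESeq2, and the builds hg19 and mm10, are named in the submitters' processing notes. The sources used here give neither their roles nor a strand setting nor an annotation version. RNA was selected on oligo(dT) beads, per the labels' protocols. One column carries a shortened name (FKD) and was matched as the only knockdown library numbered 1. Of 39635 rows, 1 had no values.

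Counts were fitted with edgeR 4.0.16 in R 4.3.3 (filterByExpr defaults, TMM scaling, quasi-likelihood test, two-sided, Benjamini-Hochberg over 15336 genes, threshold 0.05, 2 residual degrees of freedom), shFer-labelled libraries (labelled Fer knockdown) over control, and the steps were tested on simulated data. The SE was taken from the fold change and test statistic. CPM are TMM-scaled. Per-length levels use the deposited gene length in bases, another value the authors give per the file headers. DESeq2 1.42.0, other scalings, no filter, a replicate block and leaving out each library were alternatives. Exon overlaps and words came from GENCODE 29 (GRCh38), and promoter windows from RefSeq (GRCh38.p14), where all 10 members were matched.

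The members and lists were chosen with earlier results of these data known. The text names the members, FER, for each list up to 6 called genes or else the 2 with the smallest p, the nearest tested neighbours of NELFE (up to 4 a side), and the 5 genes nearest to it in profile. Some genes that this rule names are not reported here.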

Additional observations from a re-analysis of the deposited data

How the results depend on the processing

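NELFE kept its direction under all 10 alternatives, which reuse the counts it was chosen for, so this is no test of its rise. The number of genes called was 99, and it was 990 with a replicate block, 443 with library totals alone, 993 with no filter, 580 in DESeq2, and 56 to 4734 with 1 library left out, where the lone library of a group is assumed to vary like the other pair. With all 4 libraries kept, 0 of the other 8 tested members were called, but 1 (SKIV2L) with no filter, where 993 of all 23979 genes were called. Members NELFB, CDK9 and SKIV2L each passed the threshold in some fits with 1 library left out, which are read here by effect size alone. Of the 85 pathway genes 0 were called, but 6 with the replicate block, 4 with library totals alone, 7 with no filter, 4 in DESeq2, and 0 to 38 with 1 library left out. The GENCODE length put the mean NELFE level at 15.3% of NELFB in shFer-labelled libraries, against 14.8% with the table's length. With 1 library left out, log2 fold changes ran from -0.019 to 0.31 for NELFB, -0.0065 to 0.040 for NELFCD, -0.0028 to 0.049 for SUPT5H, -0.0042 to 0.094 for CCNT1 and -0.10 to 1.83 for SKIV2L. The values below 0 missed the threshold and came without control replicate 2 for NELFB and NELFCD, without shFer-labelled replicate 1 for SUPT5H and SKIV2L, and without shFer-labelled replicate 2 for CCNT1. HEXIM1 was at 0.081 with library totals alone. The causes were not tested, beyond fewer samples where a library was left out. DESeq2 gave no adjusted p for SKIV2L. No label says that replicate numbers pair the libraries, and the replicate differences of the groups correlated at 0.04 across genes, so the block result (990 genes) is given here alone. The control values of NELFE rest on 27 and 16 counts, with exact 95% counting intervals of 17.8 to 39.3 and 9.14 to 25.98 counts.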

Other observations

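Genes with large overlaps or pseudogene names were counted among all calls, a count chosen after the profiles near NELFE were seen. Of the 43 genes called higher in the libraries labelled Fer knockdown, 4 were pseudogenes and 7 others overlapped other genes over at least 25% of their exonic bases, 25.6% in all, against 13.1% of the 15329 tested genes matched to GENCODE 29. Of the 56 genes called lower, 4 were pseudogenes and 0 had such an overlap. Of the 7 genes called higher by at least 4-fold, a count that takes in NELFE, chosen for its rise, 5 were of either kind.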
